A study of Mus musculus with 6 samples.

Results

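The IkB family comprises inhibitors of the NF-kB transcription factors, and 6 of its genes were followed here among the 27507 gene identifiers of an RNA-seq experiment in L929 cells, a mouse fibroblast line. The members were taken from the deposited table by gene symbol: Nfkbia, Nfkbib and Nfkbie, the classical cytoplasmic IkBs, and Nfkbid, Nfkbiz and Bcl3, the atypical nuclear IkBs. Each had 1 row, and all 6 passed the minimum of 10 normalized counts in at least 3 samples. A normalized count is a gene's read count divided by the size factor of its sample. Poly(A) RNA was sequenced from 3 control samples, whose genotype label is WT, and from 3 samples with a knockout of STING (STING KO, written Sting-/- in the series' own description). STING is the adaptor through which cytosolic DNA sensing reaches TBK1, IRF3 and NF-kB, and the series asks what losing it does to the transcriptome. No treatment is named in the labels, and how the knockout was made, whether it is 1 clone and whether replicates are separate cultures is not given in the sources used here. The p-values below therefore measure spread among these samples only, and that spread could be technical.

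Classical IkBs hold NF-kB dimers in the cytoplasm through their ankyrin repeats. The IkB kinase complex phosphorylates them, the SCF ubiquitin ligase with beta-TrCP marks them for the proteasome, and NF-kB enters the nucleus, where it switches on Nfkbia and so restores its own inhibitor. Atypical IkBs act in the nucleus, where they bind mainly p50 or p52 dimers and raise or lower the transcription of selected genes. In fibroblasts this circuit controls chemokines and interleukin-6.

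RefSeq held promoter windows for 5 of the 6 genes (build GRCm38.p6), 7 windows in all since Nfkbid had several starts, and Nfkbiz had no entry. The canonical kB consensus, the site that NF-kB dimers prefer, was searched on both strands in the 250 bases before each start. It was found for 3 genes, Nfkbia, Nfkbid (before the second of its starts) and Nfkbie, in 3 of the 7 windows, while 3.9% of all 32851 RefSeq windows of this length hold it. Nfkbib and Bcl3 had no match in these windows. The windows with a canonical match are shown because they hold the letters that NF-kB dimers prefer. Capitals mark the canonical matches, each sequence ends at the base before the start, and a match is a description of the letters, not of binding.
Nfkbia, chr12:55492648-55492897, minus strand: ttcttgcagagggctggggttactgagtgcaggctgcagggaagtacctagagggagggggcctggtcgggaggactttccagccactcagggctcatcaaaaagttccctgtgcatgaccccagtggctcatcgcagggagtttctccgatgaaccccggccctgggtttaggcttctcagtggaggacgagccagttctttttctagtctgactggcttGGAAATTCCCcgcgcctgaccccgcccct
Nfkbid, second start, chr7:30422156-30422405, plus strand: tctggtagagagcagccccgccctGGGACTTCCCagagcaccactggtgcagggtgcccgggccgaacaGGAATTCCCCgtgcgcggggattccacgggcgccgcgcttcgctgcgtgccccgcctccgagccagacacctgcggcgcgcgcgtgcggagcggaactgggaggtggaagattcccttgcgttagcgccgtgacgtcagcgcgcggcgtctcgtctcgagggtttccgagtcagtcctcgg
Nfkbie, chr17:45555450-45555699, plus strand: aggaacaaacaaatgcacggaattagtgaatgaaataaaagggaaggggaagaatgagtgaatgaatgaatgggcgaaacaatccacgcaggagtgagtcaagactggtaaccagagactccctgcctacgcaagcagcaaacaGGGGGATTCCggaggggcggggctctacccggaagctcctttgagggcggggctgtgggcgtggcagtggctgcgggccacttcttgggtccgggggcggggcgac
The Nfkbia match lies at -29 to -20 from the start on the reverse strand, as GGGAATTTCC. In the Nfkbid window the matches were GGGACTTCCC at -226 to -217 and, on the reverse strand, GGGGAATTCC at -181 to -172. The Nfkbie match, GGGGGATTCC, lies at -106 to -97.

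Sting1 itself (Tmem173 in the table), the targeted gene, was at 311 to 329 normalized counts in control and at 80.6 to 93.4 in STING KO (limma log2 fold change -1.90, SE 0.09, adjusted p = 9.72e-06), so its RNA went with the labels of all 6 libraries. Totals were 14382072 to 14526606 normalized counts per sample. The fibroblast label was checked on 17 markers: collagen I, vimentin and fibronectin RNA was abundant (Vim at 79614 to 103473), while Fap was at 0 in 5 libraries and Twist1 at about 1 or 0. Summed, the fibroblast markers ran from 220686 to 233052 in control and from 235095 to 251452 in STING KO, without overlap. limma called 0 of the 13 tested. In 4 of these 13 every STING KO library lay above every control library, against 5.76% of all genes. In 0 was it the reverse, against 6.32%. Hepatocyte markers, 15 in all, stood apart in 2 libraries: control replicate 3 (5746 in sum, against 354 and 768) and STING KO replicate 1 (5319, against 379 and 794). Dcn and Lum, fibroblast markers, were also highest there: 94.4 and 31.8 in the former, 32.7 and 11.9 in the latter. These 2 libraries are named below as those with hepatocyte transcripts, though the other libraries held some too. Where leaving out both changed a call below, the value without them is given, or that the gene was not tested.

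Within the IkB family, Nfkbia and Nfkbiz fell in STING KO, to 55.3% and 56.5% of control, 1 gene of each class. Nfkbid and Nfkbie were at 74.3% and 76.6%, Bcl3 at 80.3% and Nfkbib at 92.1%, and none of these 4 passed the test. By limma 2 of 6 members were thus called lower at an adjusted p at or under 0.05, against 0.258% of the 12408 genes tested, and 0 were called higher. At an unadjusted p at or under 0.05 the counts were 4 lower, against 3.18% of all genes, and 0 higher, against 3.2%. limma-voom also called 2 members lower and 0 higher, against 30 lower and 0 higher of all 12408 genes. The authors' deposited table called 2 members lower (0.251% of the genes with an adjusted p in that table) and 0 higher (0.043%). All 6 log2 fold changes were negative, with a median of -0.52 (-0.42 without the scarce Bcl3), while 6306 of 12408 genes had a negative one and the median over all genes was -0.00. In 4 of 6 members every STING KO library lay below every control library, which 6.32% of all genes showed, and in 0 members was it the reverse, which 5.76% of all genes showed.

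**Figure D1:**
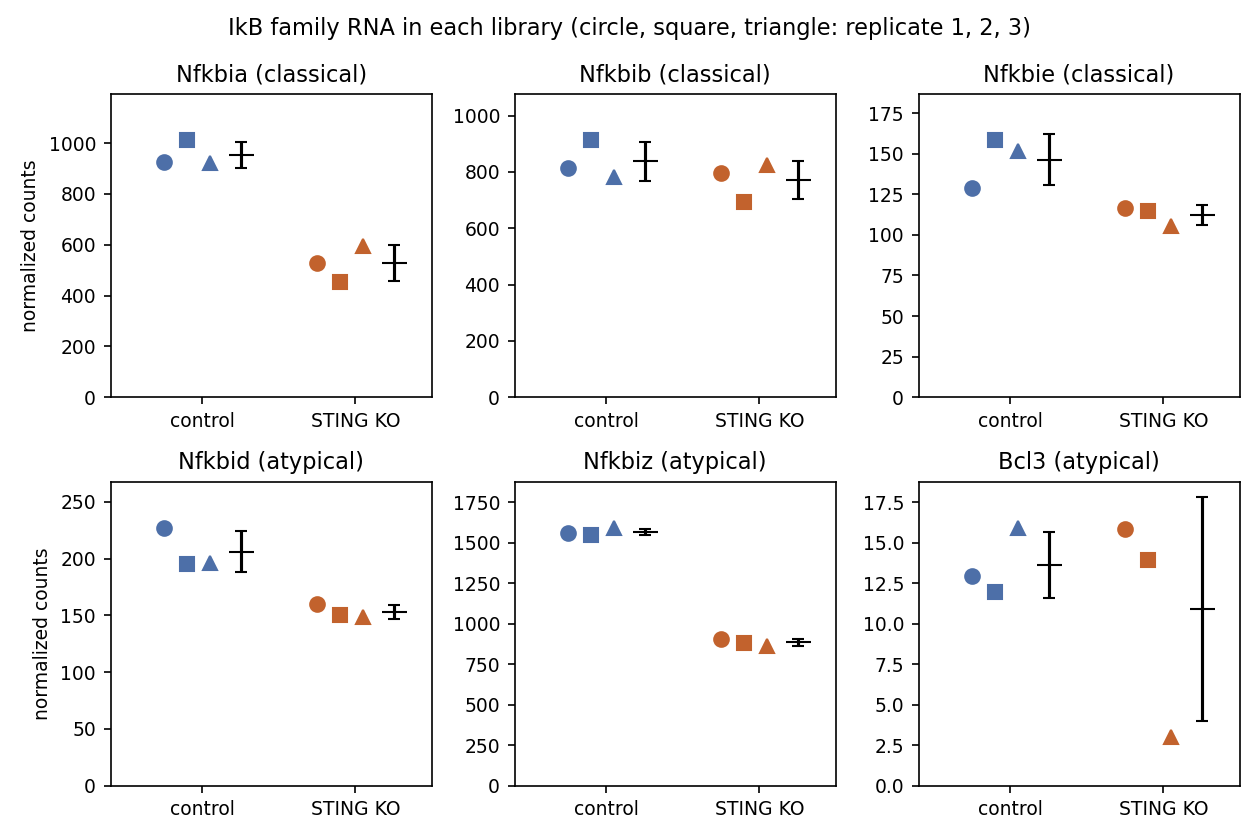
Normalized counts (vertical axis, from 0) of each IkB gene in the 3 control and 3 STING KO libraries, with the mean and SD in black. The groups are apart for Nfkbia, Nfkbie, Nfkbid and Nfkbiz and overlap for Nfkbib and Bcl3.

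Among the classical IkBs, Nfkbia encodes IkB alpha, the inhibitor that is made anew after each NF-kB pulse. The gene (ENSMUSG00000021025, chromosome 12, 55489410 to 55492647, minus strand, protein coding, build GRCm38) stood at 924, 1013 and 921 normalized counts among the controls and at 530, 455 and 596 in the STING KO libraries. The highest STING KO library, replicate 3, was still well under the lowest control library. The means were 952 ± 52.1 and 527 ± 70.8 (SD, n = 3 each), and limma put the log2 fold change at -0.86 (SE 0.10, adjusted p = 0.00348). Of all tested genes, 0.242% had a lower fold change. The authors' deposited table gives -0.85 (SE 0.11, adjusted p = 2.24e-12). Leaving out any 1 library kept the call, at adjusted p of 0.00021 to 0.0333. Without both libraries that hold hepatocyte transcripts the log2 fold change was -0.89, as large, but the call was lost (adjusted p = 0.0879, with 2 samples per group). In bulk RNA, fewer cells expressing a gene and less RNA per cell cannot be told apart, here or below.

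Nfkbib encodes IkB beta, which binds much the same dimers but whose gene is not known for the rapid feedback of Nfkbia. It (ENSMUSG00000030595, chromosome 7, 28758251 to 28767512, minus strand) was at 815, 914 and 783 normalized counts among the controls, against 795, 694 and 824 in STING KO. The groups overlapped, and the STING KO library with the highest value lay above 2 of the control libraries. The log2 fold change was -0.12 (SE 0.08, 95% interval -0.31 to 0.07, limma adjusted p = 0.742). Exons of Nfkbib overlap those of Sirt2, a deacetylase gene on the other strand, and no source used here gives the strand setting, which leaves reads of both possibly mixed. Sirt2 was at 1831 ± 75.3 and 1866 ± 116 normalized counts (SD, n = 3 each).

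Nfkbie encodes IkB epsilon, a later feedback inhibitor. The gene (ENSMUSG00000023947, chromosome 17, 45555703 to 45563169, plus strand) was at 129, 159 and 152 normalized counts among the controls, against 117, 114 and 105 in STING KO. The groups did not overlap, though the gap between them was narrower than the spread among the control libraries. The log2 fold change was -0.38 (SE 0.11, 95% interval -0.63 to -0.13) with an unadjusted p of 0.00697, and it did not pass over all genes (limma adjusted p = 0.588).

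Of the atypical IkBs, Nfkbiz encodes IkB zeta, a nuclear co-activator needed for a set of secondary NF-kB target genes. The gene (ENSMUSG00000035356, chromosome 16, 55811375 to 55838899, minus strand) was at 1561, 1548 and 1589 normalized counts among the controls, against 907, 882 and 864 in STING KO. Both groups were tight, with a coefficient of variation of 1.31% in control and 2.44% in STING KO, against 5.48% and 13.4% for Nfkbia. The means were 1566 ± 20.6 and 884 ± 21.6 (SD, n = 3 each), and limma gave -0.82 on the log2 scale (SE 0.05, adjusted p = 6.58e-05). The call held in each of the 16 alternatives run, with log2 fold changes of -0.84 to -0.80 and adjusted p up to 0.0112. That highest value came without both libraries with hepatocyte transcripts, where the log2 fold change was -0.83.

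Nfkbid encodes IkB NS, a nuclear IkB studied mostly in lymphocytes and macrophages. The gene (ENSMUSG00000036931, chromosome 7, 30421732 to 30428746, plus strand) was at 227, 196 and 196 normalized counts among the controls, against 160.3, 150.3 and 149 in STING KO. Every STING KO library lay below every control library. The log2 fold change was -0.42 (SE 0.09, 95% interval -0.63 to -0.22) with an unadjusted p of 0.00123, and it was not called (limma adjusted p = 0.258). None of the 16 alternatives called Nfkbid or Nfkbie, whose adjusted p were at least 0.261 and 0.357.

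Bcl3 encodes a nuclear IkB that binds p50 and p52 homodimers and was found through a translocation in leukaemia. The gene (ENSMUSG00000053175, chromosome 7, 19808462 to 19822770, minus strand) was the scarcest member, at 13.0, 12 and 15.9 normalized counts among the controls, against 15.8, 13.9 and 3.01 in STING KO. STING KO replicates 1 and 2 lay within the control range, and replicate 3 alone was low. Rounded to whole reads, 41 in control stood against 33 in STING KO, or 0.805 of control, and the exact 95% interval ran from 0.493 to 1.31. It covers counting error only. The log2 fold change of -0.62 (SE 0.58, 95% interval -1.91 to 0.67, limma adjusted p = 0.769) became 0.14 (adjusted p = 0.999) without STING KO replicate 3. At this depth no change of Bcl3 was detected, and both intervals cover a fall as well as a rise. An antisense gene, Gm16175, overlaps its exons.

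**Figure D2:**
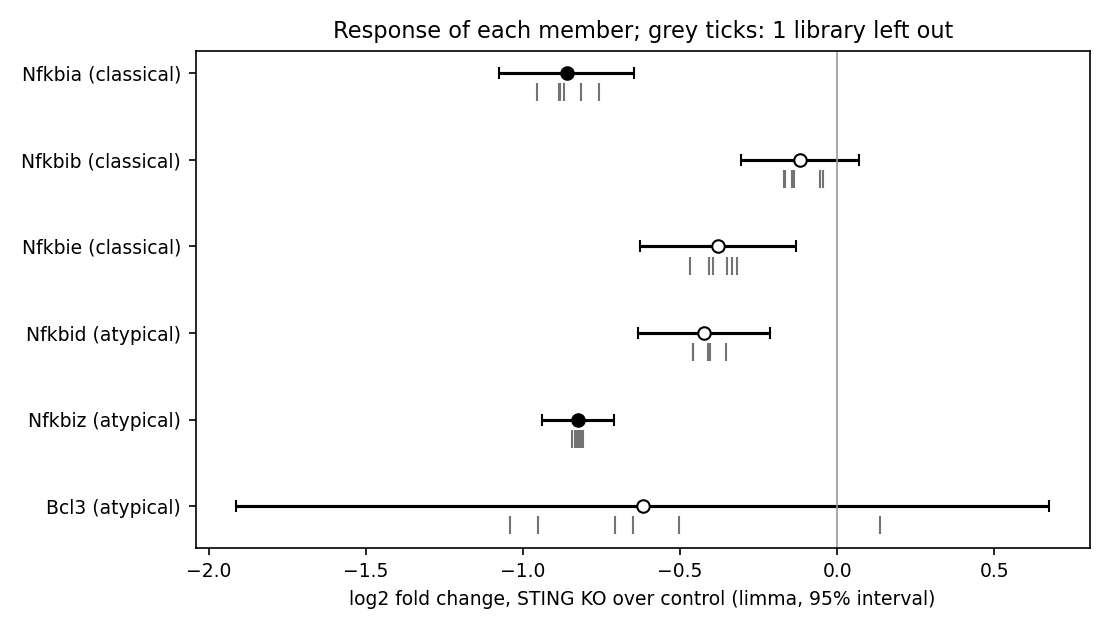
Change of each IkB gene in STING KO against control on the log2 scale (horizontal axis, limma estimate with its 95% interval; filled circles are called). Grey ticks give the estimate with 1 library left out; those of Bcl3 run from -1.04 to 0.14, those of Nfkbiz from -0.84 to -0.81.

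Each class held 1 called gene and 2 that were not called. Whether members differed in response was asked for 15 pairs, through the log2 ratio of both genes within each sample. For Nfkbia over Nfkbiz the mean ratio was -0.72 in control and -0.75 in STING KO, a change of -0.04 (exact two-sided permutation p = 0.9), and the groups overlapped. For Nfkbia over Nfkbib it went from 0.19 ± 0.04 to -0.55 ± 0.08 (SD, n = 3 each), a change of -0.74 with groups apart (exact permutation p = 0.1, 0.25 adjusted over the pairs). For Nfkbib over Nfkbiz it went from -0.91 to -0.20, a change of 0.71 (exact permutation p = 0.1, adjusted 0.25). In 6 of the 15 pairs the groups were apart, and each of these set Nfkbia or Nfkbiz against Nfkbib, Nfkbie or Nfkbid. The pairs share the same 6 genes, so this count largely restates that Nfkbia and Nfkbiz were the called members. The share among pairs of other genes was not computed. With 3 samples against 3 the test cannot go below 0.1, so 0 pairs could pass the threshold.

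Levels of different genes were compared per kilobase of the longest coding transcript in GENCODE M21. In control, Nfkbia stood highest at 603 ± 33.1 normalized counts per kilobase, followed by Nfkbib at 406 ± 33.1 and Nfkbiz at 381 ± 4.99 (SD, n = 3 each). The libraries of the last of these, Nfkbiz, overlapped those of Nfkbib, so these neighbours did not differ beyond their spread. Nfkbid at 101 ± 8.78, Nfkbie at 60.2 ± 6.43 and Bcl3 at 7.36 ± 1.1 per kilobase followed, each apart from its neighbours. In STING KO, Nfkbib at 374 ± 33.2 and Nfkbia at 334 ± 44.9 per kilobase overlapped at the top, and Nfkbiz at 215 ± 5.24 lay apart below them. The place of Nfkbib depends on the length used. With the mean length of its coding transcripts it was at 648 per kilobase in control, where it overlapped Nfkbia, and at 597 in STING KO, where it stood above Nfkbia.

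Summed over the 6 genes, IkB RNA was at 1531, 1629 and 1516 normalized counts per kilobase in the control libraries, against 1077, 968 and 1106 in STING KO, or 67.4% of control. The classical sum was at 70.5% of control and the atypical sum at 60.5%, and for each the groups were apart. Without both libraries with hepatocyte transcripts the sum of all 6 was at 65.6% of control, with the groups apart. These sums are descriptions and carry no p. The ratio of classical to atypical RNA overlapped between the groups, at 2.08, 2.40 and 2.09 for control, against 2.50, 2.27 and 2.89 for STING KO. The share of Nfkbib in the family sum was 25.0% to 27.2% in control and 34.8% to 36.2% in STING KO. This larger share is of a smaller sum: Nfkbib itself was at 92.1% of control, with groups that overlapped. The share of Nfkbia was 38.2% to 39.4% in control and 29.8% to 34.2% in STING KO, and that of Nfkbiz 23.1% to 25.5% and 19.0% to 22.2%. These shares depend on the length used. With the mean length of the coding transcripts Nfkbib held 34.2% to 36.9% in control and 45.3% to 47.0% in STING KO. Nfkbia then held 32.6% to 33.4% and 24.3% to 27.8%, and Nfkbiz 20.7% to 23.0% and 16.3% to 19.1%. The classical sum was then at 74.5% of control. Set against the summed level of the 5 NF-kB subunit genes, classical IkB RNA was at a ratio of 0.504, 0.564 and 0.515 for control, against 0.439, 0.391 and 0.467 for STING KO. The groups did not overlap, and the subunit sum was itself at 86.0% of control.

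**Figure D3:**
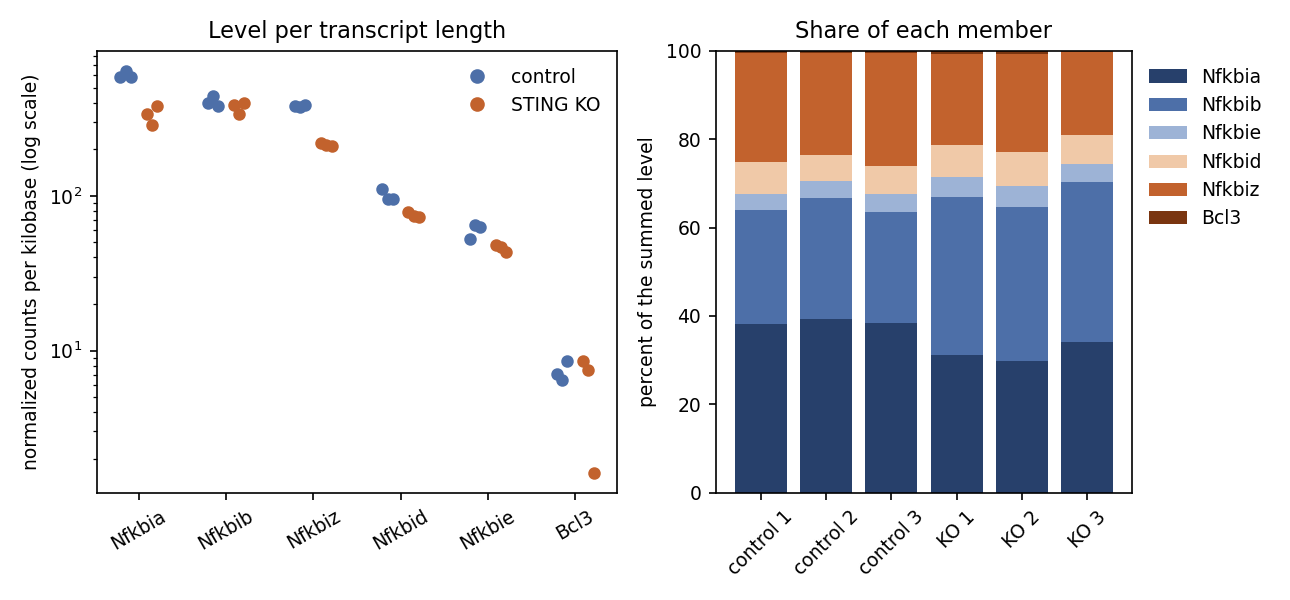
Left, normalized counts per kilobase of each IkB gene in each library on a log axis, in the order of the control means. Right, the share of each gene in the sum of the 6. With the longest coding transcript as length, Nfkbib takes 25.0% to 27.2% in control and 34.8% to 36.2% in STING KO. With the mean length of the coding transcripts these shares are 34.2% to 36.9% and 45.3% to 47.0%. Nfkbib itself was at 92.1% of control, and the sum was smaller in STING KO.

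The genes whose pattern was most like that of the called members were found by Pearson correlation of log2 values over the 6 samples, among 12407 other genes. The samples share the group difference, and 128 genes were above 0.9 for Nfkbia and 170 for Nfkbiz. Closest to Nfkbia were Pou2f2 (0.995), an octamer-binding transcription factor gene, Slc10a6 (0.993), a steroid sulfate transporter gene, and Nploc4 (0.991), a cofactor of the ATPase VCP. Of these, limma called Pou2f2, at 58.3% of control, but not Slc10a6 (70.5%, adjusted p = 0.255) or Nploc4 (94.9%, adjusted p = 0.738). Closest to Nfkbiz were Ccl2 (0.9997), Junb (0.998) and Ccl7 (0.998), for a monocyte chemokine, an AP-1 subunit and another chemokine. They were at 11.6%, 63.4% and 17.0% of control, and limma called each of them lower. Without both libraries with hepatocyte transcripts, Pou2f2 and Junb were not called (adjusted p = 0.0634 and 0.0534), at log2 fold changes of -0.79 and -0.68.

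The other genes of the circuit were taken from lists. The partners that IkBs bind, the NF-kB subunit genes, had 2 of 5 called lower by limma, against 0.258% of all genes, and 0 higher. Their median log2 fold change was -0.33. At an unadjusted p at or under 0.05, 3 were lower, against 3.18% of all genes, and 0 higher, against 3.2%. Relb, the subunit of the non-canonical pathway, went from 295 ± 35.0 normalized counts to 153 ± 5.42 (SD, n = 3 each; log2 fold change -0.94, adjusted p = 0.0028). Nfkb2, whose precursor p100 carries ankyrin repeats and acts as an IkB itself, went from 1974 ± 50.4 normalized counts to 1539 ± 54.4 (SD, n = 3 each; log2 fold change -0.36, adjusted p = 0.0241). The call of Nfkb2 was lost without control replicate 1 or 3, without STING KO replicate 1, without both libraries with hepatocyte transcripts and with the replicate number as a block (adjusted p = 0.241, 0.185, 0.214, 0.997 and 0.410). Relb was called in each of these 5 fits. Nfkb1, which encodes the other such precursor, p105, was at 85.2% of control, with every STING KO library below every control library. It was not called (limma unadjusted p = 0.00301, adjusted p = 0.428). Rel was at 80.7% (adjusted p = 0.738) and Rela at 96.8% (0.812), and for both the groups overlapped.

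The genes that act on the IkB proteins were not called. Of 14 genes for the IkB kinases and the kinases and adaptors above them, limma, limma-voom and the authors' table called 0. At an unadjusted p at or under 0.05, 3 were lower, against 3.18% of all genes, and 0 higher, against 3.2%. These 3 were Traf3, Ikbke and Chuk (limma unadjusted p = 0.00399, 0.0256 and 0.0461), with Ikbke at 83.8% and Chuk at 86.7% of control. Over the 14, 10 log2 fold changes were negative with a median of -0.10, and each 95% interval stayed inside 2-fold either way. The most abundant were Tab2 and Map3k7, subunits of the TAK1 complex, at 91.9% and 94.2% of control, and Traf3, an adaptor, at 84.5%. Of 9 genes for the ubiquitin ligase and the delivery of IkB to the proteasome, 0 were called, none at an unadjusted p at or under 0.05 and 0 by limma-voom or in the authors' table. Their median was 0.02, and all 9 intervals lay within 2-fold. The most abundant were the ubiquitin-conjugating enzyme Ube2d3 at 93.9% of control, the NEDD8-conjugating enzyme Ube2m at 102.6% and the segregase Vcp at 100.2%.

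Among 11 other binding partners and brakes, limma called 1 lower, against 0.258% of all genes, and 0 higher, at a median of -0.05. This was Tnip1, which encodes ABIN-1, a ubiquitin-binding partner of A20, which went from 1883 ± 39.9 normalized counts to 1237 ± 65.7 (SD, n = 3 each; log2 fold change -0.61, adjusted p = 0.00126). Without both libraries with hepatocyte transcripts it was not called (log2 fold change -0.55, adjusted p = 0.0879). Tnfaip3, which encodes A20, was at 71.3% of control, with every STING KO library below every control library. It was not called (limma unadjusted p = 0.00066, adjusted p = 0.167). Of the 11, 2 were lower and 1 higher at an unadjusted p at or under 0.05, against 3.18% and 3.2% of all genes. Of 5 genes for factors that control the life of cytokine and Nfkbiz mRNAs, 1 was called lower, against 0.258% of all genes. This was Zc3h12a, which encodes the RNase Regnase-1, at 26.2% of control. Rc3h1 and Rc3h2, for the Roquin proteins, Zfp36 and Arid5a, whose product protects such mRNAs, were not called, and the median of the 5 was -0.17.

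Genes linked to IkB zeta included cytokine and chemokine genes reported to need it, and Il17ra, whose receptor induces Nfkbiz. Of 8, Il12b, Csf2 and Ccl20 did not pass the minimum, at no more than 5.96 normalized counts in any library. limma called 3 of the 5 tested lower, against 0.258% of all genes, and 0 higher, at a median of -2.30. Csf3, 1 of these 3, passed the minimum through its control libraries alone. The list was chosen with earlier results of these data known, so its count is a description. Il6 fell, with 57.5 ± 5.51 normalized counts in control against 11.6 ± 1.08 (SD, n = 3 each; adjusted p = 0.000873), and Ccl2 fell to 11.6% of control (adjusted p = 2.53e-08). Csf3 was at 20.9 to 25.0 normalized counts in control and at 1 read in each STING KO library (adjusted p = 0.00231). With a minimum mean of 5 CPM, under which Il6 and Csf3 were not tested, 1 gene of the list was called. Lcn2 was not called, at 295, 319 and 347 normalized counts among the controls, against 146, 46.8 and 41.2 in STING KO (adjusted p = 0.0721). The high STING KO value is in replicate 1, where hepatocyte transcripts stood at 5319. In control replicate 3, where they stood at 5746, Lcn2 was at 347. Whether these transcripts bear on Lcn2 was not tested. Without both libraries that hold them Lcn2 was called (limma log2 fold change -2.80, adjusted p = 8.35e-05). It was also called without STING KO replicate 1 (1.79e-05) or 3 (0.0447) and by limma-voom (0.0236), so that 4 of the list were called in these 3 fits. Leaving out a control library left 2 called, since Csf3 then missed the minimum. Csf3 was also not tested without both libraries with hepatocyte transcripts. Il17ra was not called (adjusted p = 0.804).

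**Figure D4:**
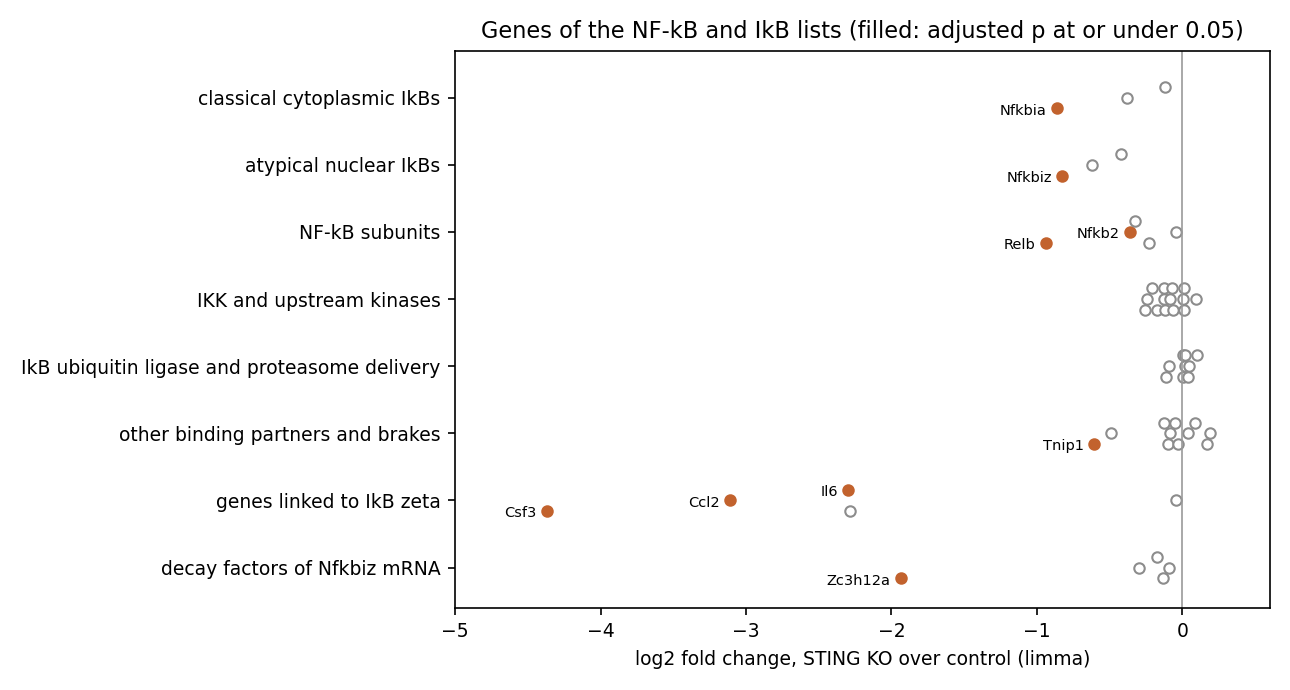
Change of each tested gene in STING KO against control on the log2 scale (horizontal axis), by list; filled and named points have a limma adjusted p at or under 0.05. The kinase and ubiquitin ligase lists lie between -0.25 and 0.10, while Nfkbia and Nfkbiz lie at -0.86 and -0.82. The place of Csf3 rests on 1 read per STING KO library and depends on the pseudocount.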

How the data were processed

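Poly(A) RNA of 3 control and 3 STING KO samples of L929 cells was measured by RNA-seq, grouped by the sample titles. The submitters' processing notes name Bowtie2 2.2.5, HISAT2 2.0.4, DESeq2 1.4.5 and RSEM 1.2.12, with no role, and the builds GRCm38 and mm10. The deposited sample columns hold a signal made by the authors, gene counts divided by a size factor per sample: 100% of the nonzero values were, within 0.01, whole multiples of a step of 0.990 to 1.00 per column. Per the file headers, the authors' own comparison holds p-values, raw and adjusted, a test score, and log2 fold changes with errors.

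The first row of each of 27507 identifiers was used (314 repeat rows left out), and GENCODE M21 gave coordinates and lengths for 27480 of them. Because the values are normalized, limma 3.58.1 (R 4.3.3) with a mean-variance trend was fitted on log2(value + 0.1), for 12408 genes with at least 10 in at least 3 samples and with no covariate. Adjusted p-values are Benjamini-Hochberg over all genes, and a fold change is a difference of mean log2(value + 0.1), which for low genes can differ from the ratio of the means in either direction (Bcl3: -0.62, against -0.32 in the authors' deposited table). The fit was tested on simulated data. The labels do not say whether replicate numbers pair the samples, and the main fit did not pair them.

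The members and lists were chosen with earlier results of these data known. Named were the members, Sting1, called list genes, the 3 most abundant genes of a list with none called, and the 3 genes most like each called member; any other gene was picked once its values were known.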

Additional observations from a re-analysis of the deposited data

How the results depend on the processing

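Nfkbiz was called in each of 16 alternatives and Nfkbia in 15, and Nfkbib, Nfkbie, Nfkbid and Bcl3 in none; Bcl3 was not tested at a mean of at least 5 CPM. Without both libraries with hepatocyte transcripts Nfkbia had a log2 fold change of -0.89 (adjusted p = 0.0879). The same fit, with 2 samples per group, called 1 of the 6 members lower, 1 NF-kB subunit, 0 of the other binding partners and brakes, and 12 genes in all against 32. Bcl3 turned to 0.14 without STING KO replicate 3, with log2 fold changes of -1.04 to 0.14 over the fits that left out 1 library.

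With the replicate block, 18 genes and 1 NF-kB subunit were called lower, and no call of a member changed (Nfkbia adjusted p = 0.0435, Nfkbiz 0.00916). Deviations of samples with the same replicate number correlated at -0.183, -0.180 and -0.488. These deviations also hold the hepatocyte transcripts of control replicate 3 and STING KO replicate 1, which differ in number. The check therefore cannot decide whether the numbers pair the samples. Leaving out 1 library gave 21 to 35 lower genes, 21 of them without control replicate 1, 0 to 2 higher genes, the 2 without control replicate 2, and 1 to 2 NF-kB subunits. The authors' deposited test called 6 genes higher, and a mean of at least 5 CPM left 1 called gene linked to IkB zeta. The causes were not tested, except that these 2 low-count cytokine genes fall under that minimum. Count models on recovered reads were not run. Added after seeing the data, the family sums, shares and pair ratios were taken without both libraries with hepatocyte transcripts, leaving 2 samples per group. Of 15 pairs, 6 had groups apart, with the share among pairs of other genes not computed. With 2 samples against 2, groups often lie apart by chance, so this count cannot show that the separation held. With the longest coding transcript as length, the classical and atypical sums were at 68.4% and 59.4% of control. Depth limits Bcl3, at 3.01 to 15.9 normalized counts per library.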
